A study of Mus musculus with 12 samples.

Results

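The 8 genes described here are needed to build peroxisomes, to carry fatty acids across their membrane and to break down the hydrogen peroxide made inside them. They are Pex3, Pex16, Pex19, Pex5, Pex11a, Abcd2, Abcd3 and Cat. They were chosen by name, each matched 1 row by its gene symbol among the 48795 genes of the expected count table, and all 8 passed the filter on low counts. RNA was sequenced from the livers of 12 female mice aged 4 months and fed normal chow. The labels call 6 mice NTS WT and 6 NTS KO, meaning with and without the neurotensin gene Nts in every tissue, and 3 mice of each label ate ad libitum (fed) while 3 were fasted for 22 h. The study bred them from heterozygous parents and compared them to learn how neurotensin, a gut peptide released by fat in the meal, bears on hepatic lipid metabolism.

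Peroxisomes are small organelles that shorten very long-chain and branched fatty acids, make bile acids and ether lipids, and release hydrogen peroxide as their oxidases work. Their membrane proteins are inserted by PEX19, PEX3 and PEX16, and their matrix enzymes are imported from the cytosol by the receptor PEX5. In rodent liver many of these genes are known targets of PPARα, a nuclear receptor for fatty acids that was named for the drugs that make peroxisomes proliferate.

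Nts went against the genotype labels. It had 0 counts in all 6 libraries labelled NTS WT, whereas those labelled NTS KO had 46, 40 and 15 counts when fed and 12, 4 and 18 when fasted. The groups are therefore named as labelled, and every direction between genotypes follows the labels. Each library held 21999647 to 45273069 counts, so that 3 counts, the level that a count of 0 allows, corresponded to 0.0663 to 0.136 CPM. All 7 hepatocyte markers were measured, with Alb averaging 92977 to 106339 CPM per group, and the summed hepatocyte markers ranged from 111647 to 152663 CPM over all mice. Levels are counts scaled by TMM to the library total (CPM), and those of different genes are compared only per kilobase of transcript.

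Fasting raised most of this machinery under either genotype label. In mice labelled NTS WT, 5 of the 8 genes rose at an adjusted p under 0.05 and none fell, where 8.91% of the 13812 genes tested rose and 9.19% fell. In mice labelled NTS KO the same 5 genes rose and none fell, where 7.70% of all genes rose and 9.14% fell. These were Pex11a, Pex3, Pex16, Pex19 and Abcd3. Averaged over both labels Pex5 passed as well, giving 6 of 8 against a background of 16.0% higher and 16.8% lower. The median log2 change of the 8 genes was 0.65 in NTS WT and 0.60 in NTS KO, beside -0.0032 and -0.011 for all genes tested. In 6 of the 8 genes every fasted mouse stood above every fed mouse, within each label and over the 6 fasted against the 6 fed mice. Such separation was seen in 18.1% of all genes in NTS WT, in 17.1% in NTS KO and in 8.05% over all 12 mice.

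**Figure D1:**
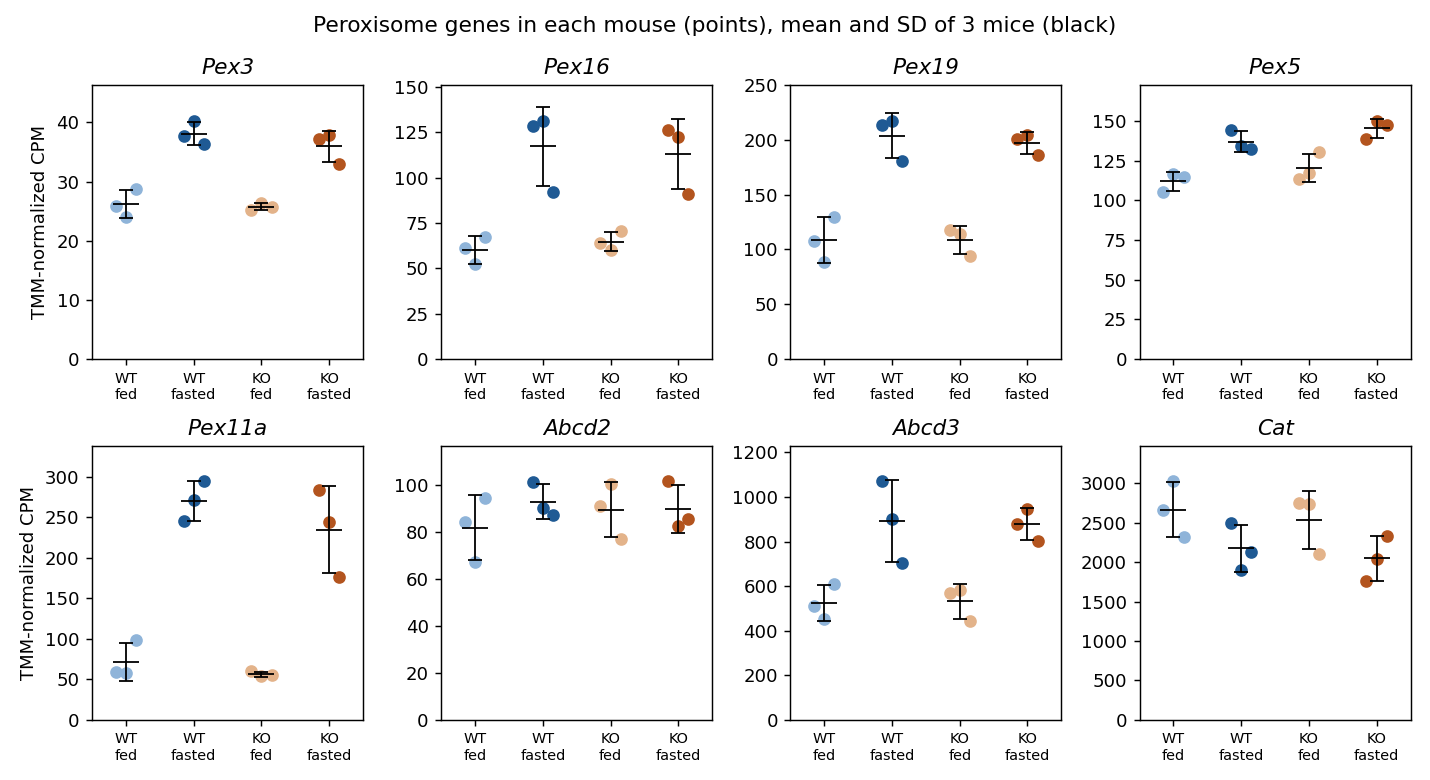
Level of each gene in CPM (vertical axis, from 0) in the 4 groups, with 1 point per mouse and black bars for the mean and SD of 3 mice. Pex3, Pex16, Pex19, Pex5, Pex11a and Abcd3 show fasted points above all fed points, while those of Abcd2 and Cat overlap.

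Pex11a, whose product elongates peroxisomes before they divide, changed most. Its CPM in fed mice labelled NTS WT was 58.8, 57.5 and 98.5, and in their fasted counterparts 245, 270.5 and 294. In mice labelled NTS KO it was 59.7, 54.2 and 54.8 when fed and 283, 243.5 and 177 when fasted. The lowest fasted mouse thus stood well above the highest fed one. Pex11a rose 3.77-fold in NTS WT (log2 change 1.91 ± 0.21, SE, adjusted p = 0.000134). In NTS KO it rose 4.17-fold (log2 change 2.06 ± 0.22, adjusted p = 6.1e-05). Ordered by its mean log2 change over both labels, it ranked 114 from the top among 13812 genes.

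The fed NTS WT mouse 323 stood apart, with Pex11a at 98.5 against 54.2 to 59.7 in the other 5 fed mice. Of the genes that followed Pex11a most closely, the acyl-CoA thioesterase gene Acot1 was at 147 CPM in that mouse and at 52.7 to 84.4 in the other fed mice. Cyp4a14, a fatty acid ω-hydroxylase gene, was at 1827 CPM there and at 775 to 917.5 in the others. Both genes were picked by their correlation with Pex11a over these same mice, 323 included. Their values in mouse 323 are therefore no separate support that it stood apart. Without mouse 323 the log2 change of Pex11a in NTS WT was 2.22 (adjusted p = 3.19e-05). Leaving out any 1 mouse moved the mean log2 change of Pex11a only between 1.91 and 2.14.

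Pex11a lies on chromosome 7 (GRCm38, chr7:79735957-79743131, minus strand), head to head with Wdr93, whose start is 32 bases away. Wdr93 had 6 to 45 counts a library and its log2 change of 0.49 did not pass (adjusted p = 0.177, mean of both labels). The left neighbour Plin1, a lipid droplet gene of fat cells that lies 3054 bases away, had 0 to 2 counts. The overlapping model Gm44706 on the opposite strand had 1 to 23 counts, and without stated strand it is not known which strand its reads came from. The counts of Pex11a, at least 1359 a library, were whole in every mouse. The RefSeq window of 250 bases before to 50 after the start of Pex11a is shown because this gene rose most. It was searched on both strands for the hexamer AGGTCA and its repeat AGGTCANAGGTCA, which PPARα binds with its partner RXR, and for the GC box (GGGCGG), the CCAAT box, the TATA box (TATAAA), the palindromic cyclic AMP element (TGACGTCA) and the E box (CACGTG). The last 2 are in 1.79% and 7.15% of windows. Capitals mark the only match, a GC box, which 35.7% of 32851 such windows hold.
Pex11a chr7:79743082-79743381, minus strand: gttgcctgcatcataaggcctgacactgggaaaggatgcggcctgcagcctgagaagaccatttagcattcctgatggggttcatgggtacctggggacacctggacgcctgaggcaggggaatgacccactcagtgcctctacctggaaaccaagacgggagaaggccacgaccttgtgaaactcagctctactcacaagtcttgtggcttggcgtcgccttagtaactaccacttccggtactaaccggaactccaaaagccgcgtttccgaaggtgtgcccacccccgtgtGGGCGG
The sequence holds neither the hexamer, found in 16.3% of windows, nor a repeat with up to 2 mismatches, found in 3.86%, in these 300 bases.

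The 3 genes for insertion of membrane proteins rose together. Pex3 encodes the membrane anchor at which PEX19 docks with its cargo. It was at 25.9, 24.0 and 28.7 CPM in fed and 37.7, 40.3 and 36.3 in fasted mice labelled NTS WT, and at 25.1, 26.3 and 25.8 when fed and 37.1, 37.9 and 33.0 when fasted in NTS KO. Fed and fasted mice did not overlap, the nearest values being 28.7 and 33.0. Pex3 rose 1.46-fold in NTS WT (log2 change 0.54 ± 0.11, adjusted p = 0.00404) and 1.40-fold in NTS KO (0.48 ± 0.11, adjusted p = 0.00781).

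Pex16, whose product helps to bring PEX3 to the membrane, was at 61.3, 52.1 and 67.1 CPM in fed and 128, 131 and 91.9 in fasted mice labelled NTS WT. In NTS KO it was at 64.1, 59.8 and 70.3 when fed and 126, 122 and 91.0 when fasted. In each fasted group 1 mouse, 322 and 295, lay about midway between the fed mice and the other 2. Pex16 rose 1.95-fold in NTS WT (log2 change 0.96 ± 0.17, adjusted p = 0.00191) and 1.75-fold in NTS KO (0.81 ± 0.17, adjusted p = 0.00551).

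Pex19 encodes the cytosolic chaperone and receptor of new membrane proteins. It was at 107, 88.6 and 130 CPM in fed and 214, 218 and 181 in fasted mice labelled NTS WT, and at 117.5, 114 and 93.9 when fed and 201, 205 and 186 when fasted in NTS KO. The lowest fasted value, 181, was above the highest fed value, 130. Pex19 rose 1.88-fold in NTS WT (log2 change 0.91 ± 0.15, adjusted p = 0.00144) and 1.82-fold in NTS KO (0.86 ± 0.15, adjusted p = 0.00186).

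Pex3 (chr10:13523842-13553142, minus strand) and Pex16 (chr2:92374676-92381217, plus strand) each overlap a gene of the opposite strand at their start. Adat2, a tRNA deaminase gene that overlaps Pex3, had 61 to 134 counts and a log2 change of 0.012 (adjusted p = 0.963, mean of both labels). Gyltl1b, which overlaps Pex16, had 2 to 24 counts and a log2 change of 0.34 (adjusted p = 0.458). The counts of Pex3 were not whole in any of the 12 mice, as RSEM gives them where reads fit more than 1 place, while those of the other 7 genes were whole throughout. Pex19 (chr1:172126755-172136493, plus strand) lies 4425 bases from the vesicle coat gene Copa, whose log2 change was 0.18 (adjusted p = 0.121). The first of 2 RefSeq windows of Pex16 is shown as the one member window with a TATA box, found in 13.6% of windows. Capitals mark that box (read on the other strand), a GC box and a CCAAT box, the last found in 37.4% of windows.
Pex16 chr2:92374426-92374725, plus strand: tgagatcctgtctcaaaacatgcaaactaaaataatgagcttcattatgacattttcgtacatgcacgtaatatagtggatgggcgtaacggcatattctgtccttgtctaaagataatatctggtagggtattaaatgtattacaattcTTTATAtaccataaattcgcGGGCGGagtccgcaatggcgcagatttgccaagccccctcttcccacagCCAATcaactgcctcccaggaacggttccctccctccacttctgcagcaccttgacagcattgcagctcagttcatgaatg
Windows were at hand for 6 of the 8 genes, 10 in all, and those of Pex3 and Abcd3 held none of the letters searched.

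Pex5 encodes the cycling receptor that imports enzymes with the usual C-terminal signal, catalase among its cargo. It was at 105, 116 and 115 CPM in fed and 145, 134 and 133 in fasted mice labelled NTS WT. In NTS KO it was at 114, 117 and 130 when fed and 139, 150 and 148 when fasted. The groups did not overlap, with fed mouse 319 at 130 and fasted mouse 322 at 133 the nearest to each other. The 1.22-fold difference in NTS WT (log2 0.29 ± 0.11, adjusted p = 0.0788) and the 1.21-fold difference in NTS KO (0.27 ± 0.11, adjusted p = 0.0971) did not pass. Averaged over both labels Pex5 rose by a log2 change of 0.28 ± 0.08 (adjusted p = 0.0118). With DESeq2 it passed under each label (adjusted p = 0.0237 in NTS WT and 0.0278 in NTS KO). Pex5 (chr6:124396816-124415067, minus strand) lies 15692 bases from Clstn3, which rose from 3.24 to 11.6 CPM in NTS WT and from 3.99 to 13.1 in NTS KO (adjusted p = 0.000375 and 0.000415).

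The 2 peroxisomal ABC transporters behaved differently from each other. ABCD3, also called PMP70, is an abundant protein of the peroxisomal membrane that takes up branched and dicarboxylic acyl-CoAs. Abcd3 was at 509, 451 and 611 CPM in fed and 1070, 902 and 706 in fasted mice labelled NTS WT, and at 571, 585 and 442 when fed and 881, 947 and 804 when fasted in NTS KO. All fasted mice stood above all fed ones, with mouse 322 the nearest to them at 706. Abcd3 rose 1.70-fold in NTS WT (log2 change 0.77 ± 0.18, adjusted p = 0.00991) and 1.65-fold in NTS KO (0.72 ± 0.18, adjusted p = 0.0142). Without mouse 290 the call in NTS KO was lost (log2 change 0.66, adjusted p = 0.0553).

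ABCD2 carries very long-chain and polyunsaturated acyl-CoAs. Abcd2 was at 84.0, 67.0 and 94.3 CPM in fed and 101, 90.2 and 87.2 in fasted mice labelled NTS WT. In NTS KO it was at 90.7, 100.5 and 77.0 when fed and 101, 82.5 and 85.4 when fasted. Fed and fasted mice overlapped under both labels. The log2 difference was 0.18 ± 0.15 in NTS WT (adjusted p = 0.425) and 0.0046 ± 0.15 in NTS KO (adjusted p = 0.988), with intervals of 2 SE from -0.11 to 0.48 and from -0.29 to 0.30. Per kilobase Abcd3 was 10.2 ± 0.54 times Abcd2 in fed mice labelled NTS WT and 15.1 ± 2.06 times in fasted ones (mean ± SD, n = 3 each). In NTS KO this ratio was 9.42 ± 0.48 when fed and 15.6 ± 2.29 when fasted. The ratio was 9.09 to 10.7 in the 6 fed and 12.8 to 18.2 in the 6 fasted mice, without overlap.

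Abcd4, a relative whose product serves lysosomal cobalamin transport, rose in NTS WT (log2 change 0.63, adjusted p = 0.00605), with 0.40 in NTS KO (adjusted p = 0.0512). Abcd2 is known from fat tissue, and the 5 adipocyte markers summed to at most 0.26 CPM in any mouse, with Lep and Retn at 0 in all. Abcd2 (chr15:91145884-91191807, minus strand) lies 95936 bases from Kif21a, a kinesin gene that rose by log2 changes of 0.51 and 0.52 (adjusted p = 0.0433 and 0.0439). Abcd3 (chr3:121758774-121815302, minus strand) contains the models 4633401B06Rik and Gm43609 on its own strand, with at most 6 and 28 counts a library.

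Cat, the gene of catalase, which splits hydrogen peroxide in the peroxisomal matrix, did not rise. It was at 2659, 3023 and 2316 CPM in fed and 2497, 1899 and 2128 in fasted mice labelled NTS WT, and at 2752, 2743 and 2107 when fed and 1764, 2043 and 2330 when fasted in NTS KO. Fed and fasted mice overlapped under both labels. The log2 difference was -0.29 ± 0.17 in NTS WT (adjusted p = 0.256) and -0.31 ± 0.17 in NTS KO (adjusted p = 0.239). Averaged over both labels it was -0.30 ± 0.12 (adjusted p = 0.072), with an interval of 2 SE from -0.54 to -0.06. This mean difference passed as a fall with DESeq2 (adjusted p = 0.0407), with upper-quartile scaling (0.0409), without mouse 265 (0.047) and without mouse 319 (0.0346). Red cells also hold catalase, and the 5 erythroid markers summed to 266 to 628 CPM in fed and 233 to 600 in fasted mice, with 1 of 5 falling in NTS KO and none passing in NTS WT. Their part in the level of Cat was not tested.

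Cat (chr2:103453849-103485160, minus strand) had the only member window with a near match to the PPARα repeat, and its window is shown for that reason. Capitals mark AGGTCAGAGAACA, which has 2 mismatches to AGGTCANAGGTCA, starts 204 bases before the gene start and holds 1 hexamer, and besides it a GC box and CCAAT boxes on either strand. An exact repeat is in 0.0396% of all windows and in none of the 10 member windows.
Cat chr2:103485104-103485403, minus strand: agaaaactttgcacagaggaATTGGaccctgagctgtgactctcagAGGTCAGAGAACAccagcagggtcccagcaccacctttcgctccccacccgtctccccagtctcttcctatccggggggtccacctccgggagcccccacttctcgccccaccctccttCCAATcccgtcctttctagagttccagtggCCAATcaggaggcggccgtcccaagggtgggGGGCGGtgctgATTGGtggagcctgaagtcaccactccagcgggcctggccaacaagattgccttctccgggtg
Near matches of this kind are in 3.86% of all windows, and sequence outside the windows was not searched. A match of letters is a description of the sequence, and binding was not measured here.

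**Figure D2:**
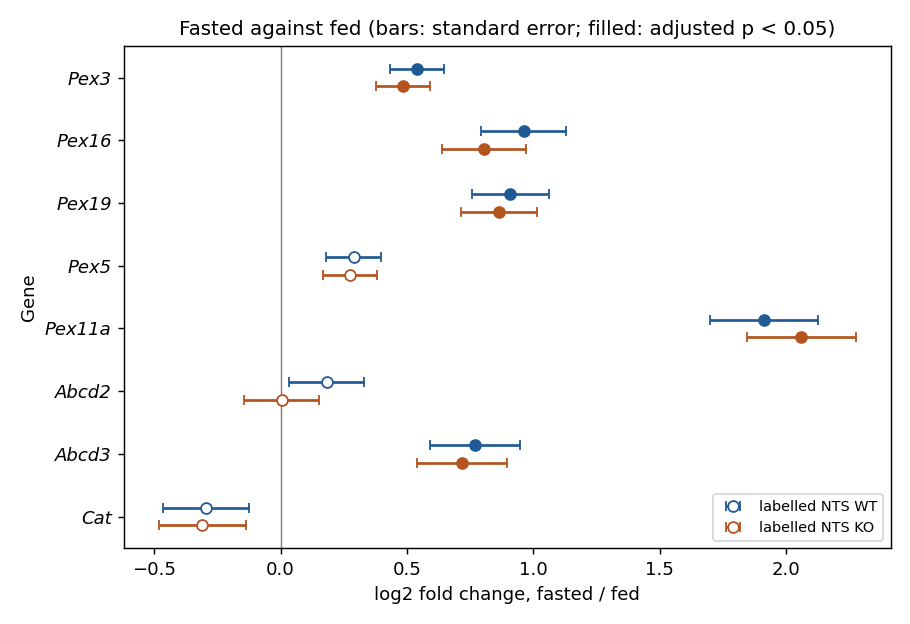
Log2 change from fed to fasted (horizontal axis) of each gene in mice labelled NTS WT (blue) and NTS KO (orange), with bars for the standard error and filled points for an adjusted p under 0.05. Pex11a stands at 1.91 and 2.06, the other risen genes between 0.48 and 0.96, Pex5 at 0.29 and 0.27, Abcd2 near 0 and Cat at -0.29 and -0.31.

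In mice labelled NTS WT the order of the mean transcript levels per kilobase changed with fasting. In fed mice labelled NTS WT it was Cat at 1020 ± 135 CPM per kilobase (SD, n = 3), Abcd3 at 137.5 ± 21.2, Pex19 at 55.6 ± 10.6, Pex16 at 43.1 ± 5.40, Pex11a at 31.9 ± 10.4, Pex5 at 29.5 ± 1.58, Abcd2 at 13.6 ± 2.29 and Pex3 at 12.1 ± 1.09. From Pex19 down to Pex5 the mice of each gene overlapped those of the next, and so did those of Abcd2 and Pex3. In fasted mice of the same label Pex11a came next after Cat at 832 and Abcd3 at 234, at 120 ± 10.9, near Pex19 at 104 ± 10.4. These mice overlapped, with Pex11a at 109 to 131 and Pex19 at 92.4 to 111. In fasted mice labelled NTS KO Pex11a, at 104 ± 24.0, also overlapped Pex19, at 101 ± 5.08, and Pex16, at 81.1 ± 13.9. With the longest transcript in place of the canonical one, Pex16 was at 20.2, Pex19 at 27.5 and Pex3 at 6.63 per kilobase in fed mice labelled NTS WT. Pex16 and Pex19 thus stayed below Abcd3 either way. Their places above or below Pex11a (31.9) and Pex5 (28.65 with its longest transcript) depended on which transcript is counted.

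The genes also varied among mice of 1 group. Mouse 322 had the lowest values of the fasted NTS WT group for Pex3, Pex5, Pex16, Pex19, Abcd2 and Abcd3 and the highest for Pex11a. As deviations from group means over the 12 mice, Pex19 ran with Abcd3 (r = 0.88) and Abcd2 (r = 0.81), and Pex3 with Pex16 (r = 0.80). Pex5 ran with none of them, its r to the other 7 genes lying between -0.41 and 0.14. These correlations describe 12 libraries whose depth and scaling are shared between genes.

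Over the 12 mice the genes most like each member in level were mostly ones that fasting moved, so their r carries the feeding groups. Pex11a went with Acot1 (r = 0.99), Fitm2 (0.99), a lipid droplet gene, and Cyp4a14 (0.98), which rose 6.95-, 2.31- and 11.3-fold as a mean of both labels. Pex19 went with Cyp4a10 (0.99) and Bfar (0.99). Abcd3 went with Pigl (0.98) and Mat1a (0.98), and Pex3 with Tfb2m, Tor1a and Acot2 (0.98 each). Pex16 was nearest to Tmem120a, Nudt18 and Slc41a3 (0.97 each), and Pex5 to Omd and Trmu (0.95 each). Abcd2 was nearest to Kdm5a (0.91), Rxrg (0.90) and Dph7 (0.90), none of which passed the fasting test. Cat was nearest to C2cd2 (0.96), Adam9 (0.93) and Hs6st1 (0.93). Acot1 and Acot2, and Cyp4a10 and Cyp4a14, are close copies among which reads may have been split.

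Beyond the 8 genes, 61 other genes linked to peroxisomes were listed by role, of which 57 were tested. Not all of them are particular to peroxisomes, the lysosomal Abcd4 being 1 example. Of the 57, 17 rose and 5 fell in NTS WT, and 17 rose and 1 fell in NTS KO. As a mean of both labels 23 rose and 8 fell. The median log2 change of the 57 was 0.15 in NTS WT and 0.29 in NTS KO. Over all genes 8.91% rose and 9.19% fell in NTS WT, 7.70% and 9.14% in NTS KO, and 16.0% and 16.8% as a mean. The falls were thus no more frequent than over all genes. The same shares stand beside the counts by role below. Among the 3 other genes tested for matrix import, Pex14, the docking protein, rose under both labels (log2 change 0.38 and 0.51, adjusted p = 0.0425 and 0.0124). Pex13 rose in NTS KO (0.34, adjusted p = 0.0413) with 0.061 in NTS WT, and Pex7, the second import receptor, had -0.13 and 0.062. Pex5l was at 0 or near it.

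Of the 6 genes that ubiquitinate PEX5 and pull it back to the cytosol, 1 rose in NTS WT and 2 rose in NTS KO, and none fell under either label. Pex26, the anchor of the export ATPases, rose in NTS KO (0.65, adjusted p = 0.0111) with 0.35 in NTS WT. Pex6, one of those ATPases, fell by 0.36 in the mean of both labels (adjusted p = 0.0174). Pex2 and Pex10 did not pass.

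Of the 6 growth and division genes tested, 2 rose under each label, Pex11a and Mff. Pex11g, a relative of Pex11a, had log2 differences of -0.25 and -0.13 that did not pass. Mff, a receptor for the fission GTPase, rose by 0.41 and 0.43 (adjusted p = 0.0371 and 0.0345). The GTPase gene Dnm1l (-0.082 and -0.038) and Fis1 (-0.16 and 0.11) did not pass, and Gdap1 had no counts.

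Of 14 enzymes of peroxisomal fatty acid oxidation tested, 8 rose in NTS WT and 9 in NTS KO, and none fell under either label. Ehhadh, the bifunctional enzyme of dicarboxylic acid oxidation, went from 476 ± 40.8 to 3394 ± 226 CPM in NTS WT and from 440.1 ± 59.0 to 3460 ± 1448 in NTS KO (SD, n = 3 each). These were rises of 7.13- and 7.86-fold (adjusted p = 2.45e-05 and 1.44e-05). The others that rose under both labels were Acaa1a, Crat, Acaa1b, Hsd17b4, Ech1, Eci2 and Decr2, with log2 changes of 0.74 to 1.69, and Phyh rose in NTS KO (0.57, adjusted p = 0.0209). Acaa1a and Acaa1b are near-identical copies, so that their split of reads is uncertain. Amacr rose and Hacl1 and Pecr fell as a mean of both labels, by log2 changes of 0.30, -0.55 and -0.45.

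The oxidases, which make the peroxide that catalase removes, went in both directions. Of 9 tested, 1 rose and 4 fell in NTS WT, and 1 rose and 1 fell in NTS KO. The 10 oxidase genes listed summed to 3837 to 4009 CPM in fed and 4231 to 5403 in fasted mice, so their summed level did not fall. Paox, a polyamine oxidase gene, fell under both labels (log2 change -2.03 and -2.33, adjusted p = 4.05e-06 and 1.77e-06). Hao1, Uox and Pipox, which oxidize glycolate, urate and sarcosine or pipecolate, fell in NTS WT by 0.91, 0.64 and 0.59 (adjusted p = 0.00801, 0.0193 and 0.0295), with -0.47, -0.35 and -0.39 in NTS KO. Cat was listed with 5 other genes that handle reactive oxygen, Gpx1, Prdx1, Sod1, Prdx5 and Gstk1. None of them passed in a fasting comparison with edgeR and TMM scaling over all mice, with mean log2 differences from -0.30 to 0.17. The settings under which Cat passed as a mean of both labels are given above.

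Of 7 genes listed as other membrane proteins, Pxmp4 rose under both labels (0.52 and 0.63, adjusted p = 0.0341 and 0.0137). Acbd5, a tether to the endoplasmic reticulum, rose in NTS KO (0.45, adjusted p = 0.0147). Mpv17, whose product is known from mitochondria, fell in NTS WT (-0.57, adjusted p = 0.0265). The proteases Ide and Tysnd1 rose in NTS WT by 0.43 and 0.37 (adjusted p = 0.0188 and 0.049), and so did Gnpat, the first enzyme of plasmalogen synthesis (0.35, adjusted p = 0.0426). Of the 5 genes of the proliferator receptors, Ppara rose in NTS WT (0.89, adjusted p = 0.0119) with 0.60 in NTS KO (adjusted p = 0.0687). Ppard fell under both labels by log2 changes of -1.93 and -2.67 (adjusted p = 0.000123 and 1.05e-05). Pparg rose in NTS KO (0.67, adjusted p = 0.038), and Rxra passed in no fasting comparison. Ppargc1a, a coactivator of these receptors, rose as a mean of both labels (0.87, adjusted p = 0.0155). It passed neither in NTS WT (adjusted p = 0.151) nor in NTS KO (adjusted p = 0.0649). In NTS KO Ppargc1a was at 7.805, 6.84 and 8.06 CPM when fed and at 6.78, 25.0 and 13.5 when fasted.

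**Figure D3:**
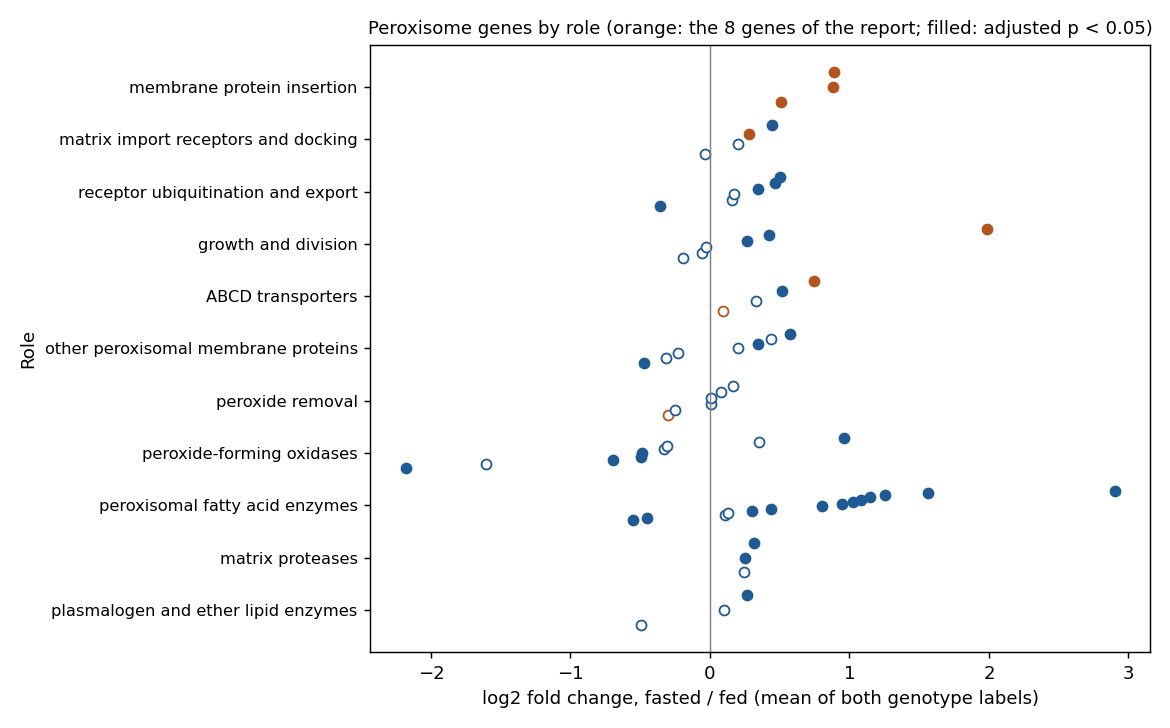
Log2 change from fed to fasted as a mean of both genotype labels (horizontal axis) for each tested gene of the peroxisome lists, by role. The 8 members are in orange, and filled points mark an adjusted p under 0.05. Pex11a, at 1.99, stands to the right of the other growth and division genes, Ehhadh is farthest right at 2.90 and Paox farthest left at -2.18.

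Markers of other liver cells are given by counts and sums, beside the 9.19% of all genes that fell in NTS WT and the 9.14% that fell in NTS KO. Of the 4 cholangiocyte markers tested of 5 listed, 1 fell in NTS WT and another in NTS KO, and the list summed to 33.4 to 49.7 CPM in fed and 13.7 to 29.6 in fasted mice. Of 5 sinusoidal endothelial markers, 1 rose and 2 fell in NTS WT and 2 fell in NTS KO, and their sum was 138 to 207 CPM in fed and 116 to 133 in fasted mice. Of 5 stellate markers 1 fell in NTS WT and 2 in NTS KO, and of 6 Kupffer markers 1 fell in NTS WT and none in NTS KO. Stellate markers summed to 218 to 282 CPM in fed and 202 to 233 in fasted mice, and Kupffer markers to 294 to 518 and 241 to 408. None of 6 lymphocyte markers passed, and they summed to 4.34 to 7.49 CPM in fed and 4.31 to 7.71 in fasted mice, and pancreas markers to at most 0.0362. Of 7 hepatocyte markers 2 rose and 1 fell under each label. In whole liver, fewer cells of a type and less RNA per cell cannot be told apart, and the part of these markers' levels in the changes above was not tested. Of 9 genes listed as a check of the fasting, 2 rose and 4 fell in NTS WT and 3 rose and 4 fell in NTS KO. Over all genes 8.91% rose in NTS WT and 7.70% in NTS KO. Pck1, Pdk4 and Angptl4 did not pass in NTS WT (adjusted p = 0.194, 0.0846 and 0.24). This list too was chosen with earlier results of these data known, so it is no independent check.

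Between the genotype labels none of the 8 genes passed. Over all genes 0% were called in fed mice, 0% in fasted mice and 0% for the difference of the fasting responses. At an unadjusted p under 0.05 there were 876, 685 and 663 of 13812 genes, and DESeq2 called 8, 4 and 3 genes, so few differences between labels of any gene were called in this design. The 2 labels overlapped for all 8 genes in fed and in fasted mice, where 10.7% and 12.2% of all genes did not overlap. Adjusted p was at least 0.80 in fed mice and at least 0.929 in fasted mice for every member.

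Pex11a had the lowest unadjusted p of the 8 genes between the labels in fed mice. Its mean was 56.2 ± 3.00 CPM in NTS KO and 71.6 ± 23.3 in NTS WT (SD, n = 3 each), a log2 difference of -0.35 ± 0.21 (SE, adjusted p = 0.80). Of the NTS WT mice, 323 alone lay above the whole NTS KO range. In fasted mice the difference was -0.20 ± 0.21 (adjusted p = 0.929). Pex5 was 120.5 ± 8.68 CPM in NTS KO and 112 ± 6.03 in NTS WT when fed, and 146 ± 6.00 and 137 ± 6.50 when fasted, log2 differences of 0.10 ± 0.11 and 0.09 ± 0.11. The other 6 genes had log2 differences between -0.09 and 0.13 in either feeding state.

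The fasting response itself did not pass as different between the labels for any member (adjusted p of at least 0.925). The difference of the log2 changes, NTS KO minus NTS WT, was 0.15 ± 0.29 for Pex11a, with an interval of 2 SE from -0.44 to 0.73. It was -0.16 ± 0.23 for Pex16, -0.18 ± 0.21 for Abcd2 and between -0.058 and -0.015 for Pex3, Pex5, Pex19, Abcd3 and Cat. The interval was narrowest for Pex3, from -0.36 to 0.24. That no difference passed does not show that the labels respond alike.

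**Figure D4:**
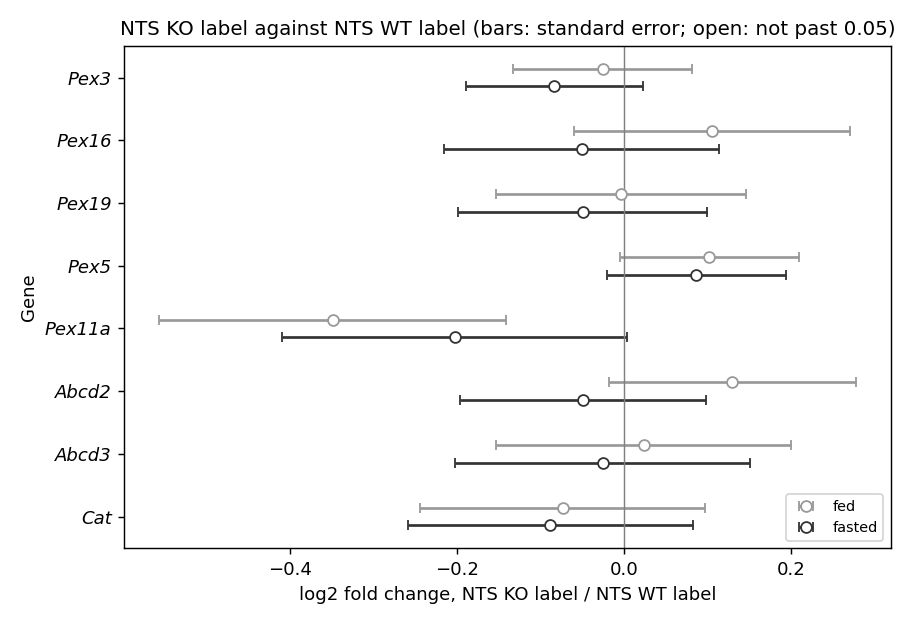
Log2 difference between mice labelled NTS KO and NTS WT (horizontal axis) for each gene in fed (grey) and fasted (black) mice, with bars for the standard error. No point is past an adjusted p of 0.05, and the lowest, Pex11a in fed mice, is at -0.35 ± 0.21.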

How the data were processed

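Liver RNA from 12 mice in 4 groups of 3 was sequenced. The deposited values are expected counts per gene that the authors made with RSEM after Trimmomatic, on the GRCm38 build per the labels; versions, aligner, annotation release and library strand were not given in the sources used here. Expected counts were rounded to whole counts, and no count column lacked a sample. Genes passing edgeR's expression filter (13812) were fitted with edgeR 4.0.16 in R 4.3.3 by the robust quasi-likelihood test with TMM scaling, 1 model over the 4 groups and Benjamini-Hochberg adjustment over all genes. Groups came from the labels, and mice of different groups share no number. Columns of the file hold gene positions, and lengths came from GENCODE vM39 transcripts matched by gene identifier (91.3% matched). Promoter windows came from RefSeq (GRCm38.p6). The fit was tested on simulated counts. Alternatives were DESeq2 1.42.0, other scalings and filters, the 2 groups alone, removal of mitochondrial genes and leaving out each mouse. Intervals of 2 SE give the uncertainty of a difference of group means, estimated from the spread between mice. They do not cover the range of single mice. Floors of 3 counts cover counting error only. The members and the lists were chosen with earlier results of these data known. Named genes were the 8 members and genes of the peroxisome lists passing in a fasting comparison. The 3 genes most correlated with each member were named too, as were neighbouring or overlapping genes. Others named beside them, such as single markers and genes that did not pass, were chosen after their values were seen. Some genes that this rule names are not reported here.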

Additional observations from a re-analysis of the deposited data

How the results depend on the processing

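The fasting direction of Pex11a, Pex3, Pex5, Pex16, Pex19, Abcd3 and Cat held under every alternative run, and the number of members passing stayed within 1.5 times. Another scaling moved the median of all genes by at most -0.041 (log2). In NTS KO the fasting difference of Abcd2 turned to -0.024 with upper-quartile scaling and to -0.0012 without mitochondrial genes, and the difference of responses of Cat turned to 0.0022 with at least 10 counts in every mouse. Genes passing between labels in fed mice were 1 with no count filter and 8 with DESeq2, in fasted mice 4 with DESeq2 and 1 with the 2 groups alone, and for the difference of responses 3 with DESeq2, in place of 0; the cause was not tested. No paired analysis was possible because the groups share no mouse number.

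Leaving out 1 mouse at a time, with fewer samples, gave 1224 to 2418 genes passing for fasting in NTS WT (under the limit of 1.5 times without 254, 257 or 282) and 1358 to 2631 in NTS KO (without 277, 284 or 290). It gave 0 to 2 genes between labels in fed mice (above 0 without 323 or 319) and 0 to 1 for the difference of responses (without 323). Log2 values that changed sign were small. For fasting in NTS KO Abcd2 ranged from -0.091 to 0.11. Between labels in fed mice Abcd3 ranged from -0.073 to 0.15, Cat from -0.16 to 0.044, Pex19 from -0.13 to 0.15 and Pex3 from -0.086 to 0.044. In fasted mice Abcd2 ranged from -0.15 to 0.011, Abcd3 from -0.17 to 0.12, Cat from -0.19 to 0.017, Pex16 from -0.20 to 0.085 and Pex19 from -0.13 to 0.0075. For the difference of responses Abcd3 ranged from -0.19 to 0.094, Cat from -0.13 to 0.089, Pex11a from -0.15 to 0.32, Pex19 from -0.20 to 0.081, Pex3 from -0.13 to 0.0052 and Pex5 from -0.053 to 0.044.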
